A study of Mus musculus with 6 samples.

Results

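Pgr and Oxtr encode the receptors for progesterone and oxytocin, and both were lower in ERα-/-.GFP+ than in WT.GFP+ mammary epithelial cells (MECs). They were taken from the deposited tables by gene name, as 2 of 651 listed genes, of which 566 showed a lower and 85 a higher mean in ERα-/-.GFP+ MECs. RNA was sequenced from GFP+ cells sorted by flow cytometry, with 3 WT.GFP+ samples, numbered 2, 3 and 5, and 3 ERα-/-.GFP+ samples, numbered 2, 4 and 6. MECs is the study's name for these cells, and the levels given here are those of all cells sorted. The donor cells came from C57Bl6 mice that carried GFP under an actin promoter, and the ERα-/- donors lacked the oestrogen receptor α in the germ line. WT and ERα-/- cells were injected into the milk ducts of opposite glands of NSG females (NOD.Cg-Prkdcscid Il2rgtm1Wjl/SzJ), which lack mature lymphocytes, and were recovered when the hosts were pregnant. Both groups therefore shared the GFP transgene, the immunodeficient host and the pregnancy, and the hosts kept their own ducts, into which the injected cells insert. The age of donors and hosts, and which samples came from 1 host, are not given in the sources used here.

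The progesterone receptor is a nuclear receptor that binds DNA once progesterone has entered the cell. In the mammary gland it is known from luminal cells that sense steroid hormones, where oestrogen acting through ERα induces it, and these cells pass the signal to their neighbours through secreted factors such as Rankl and Wnt4. The oxytocin receptor is a G protein-coupled receptor of the cell surface. It is known from myoepithelial cells, the contractile basal layer of ducts and alveoli, where oxytocin raises calcium through Gq and phospholipase C and the cells contract to eject milk. One gene is thus a steroid sensor of the luminal layer and the other a peptide hormone receptor of the basal layer.

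Pgr (ENSMUSG00000031870) lies on chromosome 9 of GRCm38 from 8899833 to 8968611 on the plus strand, with 4 annotated transcripts, 8 exons in the longest and 8546 bp of exon in all. Oxtr (ENSMUSG00000049112) lies on chromosome 6 from 112473683 to 112489943 on the minus strand, with 2 transcripts, 2 exons in the longest and 4790 bp of exon in all. Neither gene shares an exon base with another annotated gene on either strand, so reads of an overlapping gene could not be assigned to them. The sequence before each start is shown because ERα and the progesterone receptor act by binding DNA. Sequences are from RefSeq for GRCm38.p6, written 5′ to 3′ on the strand of the gene, and capitals mark a TATA box on the opposite strand followed by a GC box in the Pgr sequence, and an oestrogen response half-site in the shorter Oxtr sequence.
Pgr, 250 bases before the start, chr9:8899583-8899832, plus strand: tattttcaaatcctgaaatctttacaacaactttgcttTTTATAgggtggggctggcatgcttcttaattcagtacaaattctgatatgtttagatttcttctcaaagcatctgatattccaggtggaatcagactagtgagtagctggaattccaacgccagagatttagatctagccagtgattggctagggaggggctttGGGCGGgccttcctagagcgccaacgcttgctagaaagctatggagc
Oxtr, 132 bases before both annotated starts, chr6:112489944-112490075, minus strand: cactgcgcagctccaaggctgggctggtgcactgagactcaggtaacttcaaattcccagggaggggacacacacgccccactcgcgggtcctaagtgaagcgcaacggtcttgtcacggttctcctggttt
Oxtr, 29 bases around the half-site, chr6:112489906-112489934, minus strand: agaggacaggcaGGTCAgtgccagagtgc

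The promoter windows held 250 bases before and 50 after the RefSeq start, and each motif was searched on both strands in 32851 such windows, so that a match could be read against its background. The half-site of the oestrogen response element, GGTCA or its complement TGACC, was found in 40.5% of all windows, 0 times in that of Pgr and 2 times in that of Oxtr, where it began 97 bases before and at base 25 after the RefSeq start. The RefSeq start of Oxtr lies 118 bp inside the start that GENCODE annotates, so both of these matches lie in the first GENCODE exon. The palindromic oestrogen response element, a GGTCA and a TGACC that are 3 bases apart, was in 0.0700% of windows and in neither member, and with 1 mismatch allowed it was in 0.877% of windows and again in neither. The half-site bound by the progesterone and glucocorticoid receptors, TGTTCT or its complement, was in 19.0% of windows and in neither member, and the AP-1 site, TGACTCA or TGAGTCA, was in 5.20% and in neither. The TATA box, TATAAA or its complement, was in 13.6% of windows and 1 time in that of Pgr, beginning 212 bases before the start on the opposite strand. The GC box, GGGCGG or its complement, was in 35.7% of windows and 1 time in each member, beginning 47 bases before the Pgr start and, also in that first exon, 49 bases before the RefSeq start of Oxtr. No match overlapped one of another motif. The 250 bases before the RefSeq start had a GC content of 43.6% and 4 CpG in Pgr, and of 61.6% and 12 CpG in Oxtr, against medians of 52.4% and 6 CpG over all windows. These are matches of letters in a short window, and no binding was measured in these samples.

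The deposited tables give 1 mean per gene and group, the authors' mean of the read counts and of a normalised value. Its header names no unit, and it was read here as log2 CPM, the counts per 1000000 reads on a log2 scale. Depths, CPM and shares of all reads rest on this reading, and if library sizes were rescaled the depths are effective sizes. Values of single samples were not used here, so the spread between samples is not given, it cannot be said whether the groups overlap, and no test between samples was run. The depth worked out from these means was 27190483 reads per library in WT.GFP+ against 29326709 in ERα-/-.GFP+ MECs. CPM, levels per kb of exon and folds were computed from the mean counts and these depths. Their 95% intervals are exact, rest on the summed reads of 3 libraries and cover counting error only, since amplified reads without molecular identifiers are not independent molecules. Headers call the groups selections and name no genotype, which was taken from the direction that the study states for most genes, so no direction given here is independent of that statement. The 566 genes called lower here, Pgr and Oxtr among them, were deposited as the up-regulated list, and the 85 called higher as the down-regulated list. The labels of both lists thus run against this assignment, unless they were written for WT.GFP+ relative to ERα-/-.GFP+ MECs, and with the selections the other way round every direction given here would turn. The study also describes genes of T-cell immunity as increased and keratinisation as decreased in ERα-/- MECs. Under the assignment used here Gzmb, a granule protease of cytotoxic lymphocytes, was higher and the keratin Krt5 lower, which matches that account. The account rests on the same comparison and is no independent check. Esr1, the deleted gene, was in neither table and could not check the genotypes. The study describes its level as low, without a significant difference between the groups.

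The mean count of Pgr was 129 in WT.GFP+ MECs, or 388 reads over the 3 libraries, and 36.3 in ERα-/-.GFP+ MECs, or 109 reads. Its mean log2 CPM was 2.19 in WT.GFP+ against 0.36 in ERα-/-.GFP+ MECs. The level was 4.76 CPM (95% interval 4.29 to 5.25) in WT.GFP+ against 1.24 CPM (1.02 to 1.49) in ERα-/-.GFP+ MECs, so that the higher value was in WT.GFP+ and the counting intervals were apart. Genes were listed only past a 2-fold change at an FDR under 0.05. This separation therefore follows largely from the listing and is no further support. Pgr was 3.84-fold lower in ERα-/-.GFP+ MECs (95% interval 3.10 to 4.79), a log2 difference of -1.94, and 26.0% of its WT.GFP+ level was left. On the scale of the mean log2 CPM the difference was -1.82, or 3.54-fold. Pgr was therefore still read in ERα-/-.GFP+ MECs, and its low count leaves the fold with a wide interval from counting alone.

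The mean count of Oxtr was 4995 in WT.GFP+ MECs, or 14985 reads over the 3 libraries, and 1495 in ERα-/-.GFP+ MECs, or 4484 reads. Its mean log2 CPM was 7.50 in WT.GFP+ against 5.60 in ERα-/-.GFP+ MECs. The level was 184 CPM (181 to 187) in WT.GFP+ against 51.0 CPM (49.5 to 52.5) in ERα-/-.GFP+ MECs, again with the higher value in WT.GFP+ and counting intervals that were apart. As for Pgr, this follows largely from the listing. Oxtr was 3.60-fold lower in ERα-/-.GFP+ MECs (3.49 to 3.73), a log2 difference of -1.85, and 27.7% of its WT.GFP+ level was left. On the scale of the mean log2 CPM the difference was -1.90, or 3.72-fold. In these bulk samples, fewer cells that carry a receptor and less of its RNA per cell cannot be told apart.

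Set side by side, both receptors were lower, as were 86.9% of the 651 listed genes, so that their shared direction is that of most of the tables. Neither was lower by more than 4-fold, as 20.6% of the listed genes were. The log2 difference of Oxtr minus that of Pgr was 0.091 with the mean counts and -0.074 with the mean log2 CPM, so which of them differed more between the genotypes depended on the scale. The fold of Oxtr lay inside the counting interval of that of Pgr, and a difference between the 2 folds was not detectable at this depth. Their levels were far apart. Per kb of exon, Oxtr stood at 38.4 CPM (37.7 to 39.0) and Pgr at 0.557 (0.503 to 0.615) in WT.GFP+ MECs, and at 10.6 (10.3 to 11.0) and 0.145 (0.119 to 0.175) in ERα-/-.GFP+ MECs. Oxtr was thus 68.9 times as high as Pgr per kb in WT.GFP+ against 73.4 times in ERα-/-.GFP+ MECs.

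**Figure D1:**
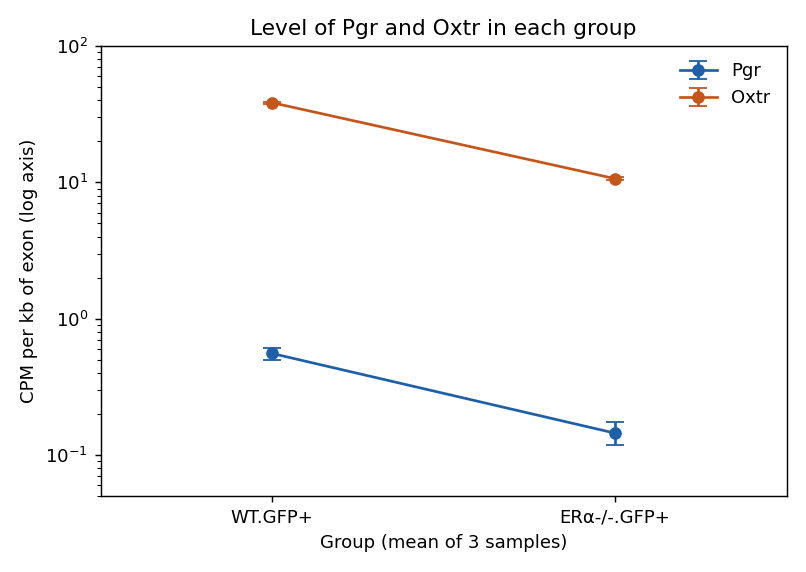
Level of Pgr and Oxtr in CPM per kb of exon (log axis) in WT.GFP+ and ERα-/-.GFP+ MECs, each point from the authors' mean of 3 samples. Bars are 95% intervals of the summed reads and cover counting error only. Both lines fall, from 0.557 to 0.145 for Pgr and from 38.4 to 10.6 for Oxtr.

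Among the 566 lower genes, Pgr was one of the weakly read and Oxtr one of the strongly read. Per kb of exon in WT.GFP+ MECs, Oxtr was at position 45 and Pgr at position 471 of the 565 lower genes with an annotated length, whose median was 3.21 CPM per kb. In ERα-/-.GFP+ MECs the positions were 58 and 462, with a median of 1.02 CPM per kb. By fold, the lower genes had a median of 3.26 and quartiles of 2.65 and 3.93, and both receptors lay between the median and the upper quartile. Pgr was at position 157 of 566 by the fold of the mean counts and at 243 by that of the mean log2 CPM, and Oxtr at 214 and 199. Of the 566 genes, 28 had a mean count of at most 1 in ERα-/-.GFP+ MECs. Their mean count was set to a floor of 3, so that their folds are lower bounds. Of the 431 lower genes whose mean count reached 100 in WT.GFP+ MECs, with a median fold of 3.06, Pgr was at position 76 and Oxtr at 125.

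**Figure D2:**
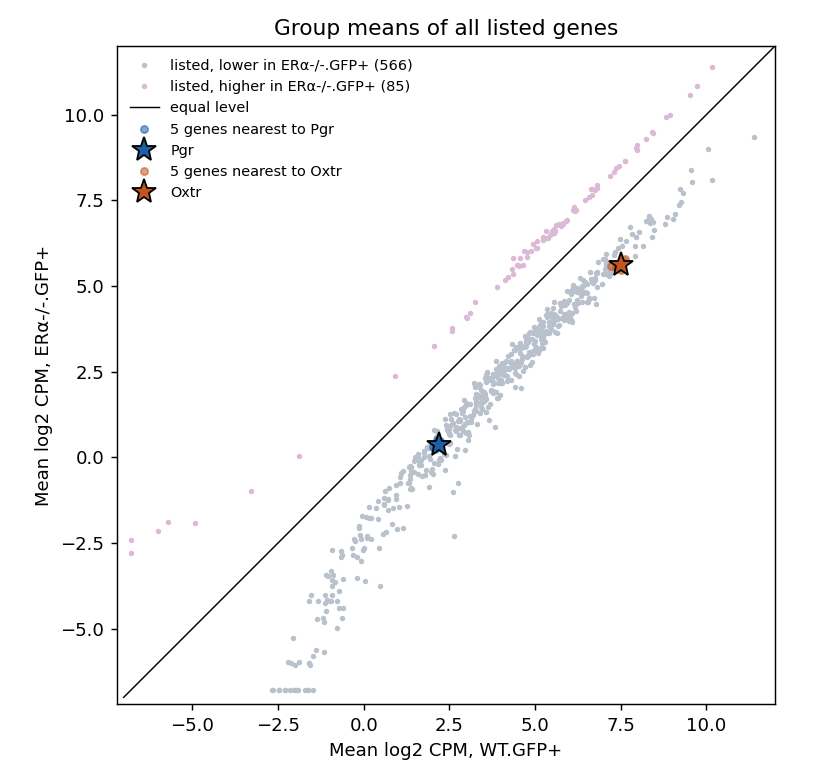
Mean log2 CPM of the 651 listed genes in WT.GFP+ (horizontal) and ERα-/-.GFP+ MECs (vertical), with the line of equal level. Pgr, at 2.19 and 0.36, and Oxtr, at 7.50 and 5.60, lie within the band of the 566 lower genes below the line, at its weakly and strongly read parts.

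The genes nearest to each receptor in the plane of both group means were taken as those most like it, with a distance on the log2 scale that rests on 2 means per gene. Nearest to Pgr were Foxj1 at 0.051, the transcription factor of motile cilia, Grb14 at 0.12, an adaptor that binds the insulin receptor, and Igsf9, Rassf10 and Etv1, the last an ETS transcription factor, at up to 0.16. Foxj1 had mean read counts of 133 in WT.GFP+ against 39.7 in ERα-/-.GFP+ MECs, a fold of 3.63, which lies within the interval of Pgr. Nearest to Oxtr were Gas1 at 0.11, a membrane protein that binds hedgehog ligands, Actg2 at 0.13, the smooth muscle γ-actin, Rbpms at 0.16, an RNA binding protein, Palld at 0.23, which ties actin filaments together, and Smtn at 0.29, an actin binding protein of contractile smooth muscle. Actg2 had mean read counts of 4892 and 1341, a fold of 3.94, and Smtn of 4000 and 1396, a fold of 3.09. Actg2 and Smtn stand in the myoepithelial marker list. The direction of all 10 was that of the receptors, with the higher mean in WT.GFP+ MECs, but the choice of genes fixed this. Each lay within 0.29 of a receptor whose mean log2 CPM differed by -1.82 (Pgr) or -1.90 (Oxtr), so the shared direction is no separate result.

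The genes that share a pathway with the receptors were read from lists, and a gene counts only if it was in the tables, which hold genes past 2-fold at an FDR under 0.05. A gene that was not listed may have changed less, or not have passed, or not have been tested, and its level was not analysed here. Of the 21951 protein coding genes that GENCODE annotates, 2.34% were listed as lower and 0.337% as higher, and these shares stand as the background, although they also cover genes that the cells may not express. The lists were chosen with earlier results of these data known. The share of a list that was listed is therefore a description and no test of enrichment.

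The steroid receptor list held 6 genes, and Pgr, which was taken from the listed genes, was the 1 listed. Esr1 and Esr2 for oestrogen, Nr3c1 for glucocorticoid and Nr3c2 for mineralocorticoid were not listed. Of 43 other nuclear receptors, 2 were listed as lower, or 4.65% beside the background of 2.34%. Nr1d1, a repressor of the circadian clock, had mean read counts of 1191 in WT.GFP+ against 545 in ERα-/-.GFP+ MECs and was 2.36-fold lower, and Nr6a1, the germ cell nuclear factor, had 400.3 and 147 and was 2.93-fold lower. The fold of Nr1d1 lay below the whole interval of Pgr, and the interval of Nr6a1, 2.63 to 3.28, overlapped it. Of 20 partners and coregulators of steroid receptors, 3 were lower, or 15%. Among them were the AP-2 factors Tfap2c, at 2797 and 1037 and 2.91-fold lower, and Tfap2a, at 279 and 127 and 2.37-fold lower. Foxa1 and Gata3, transcription factors of luminal cells, and the coactivators Ncoa1, Ncoa2 and Ncoa3 were not listed.

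Pgr was also the 1 listed gene of the 20 oestrogen receptor targets, or 5% of them, and of the 22 luminal hormone sensor markers, or 4.55%, beside the background of 2.34%. As Pgr was taken from the listed genes, these counts say nothing of Pgr itself, and 0 of the other genes in either list were listed. Areg, the EGF receptor ligand induced by oestrogen, Wnt4, Prlr, the prolactin receptor, and Greb1 were not listed. For these same groups, the study reports low levels of genes that mark ERα-high cells, with no significant differences. Its text does not say whether Pgr was among them. By PCR in mammary glands of peripubertal females, a different setting, it reports lower Areg, Wnt4, Pgr and Prlr in ERα-/- than in WT. Of 21 genes put in a list of progesterone receptor effectors, 3 were lower, or 14.3%, each by a larger fold than Pgr on both scales. No action of progesterone on these genes was measured here. Lgr5, a receptor for R-spondins that marks stem cells in several epithelia, had mean read counts of 237 and 41.3 and was 6.18-fold lower. Fzd7, a Wnt receptor, had 1817 and 492 and was 3.98-fold lower, and Id4, an inhibitor of helix-loop-helix factors, had 1664 and 452 and was 3.97-fold lower. The fold of Lgr5 lay above the counting interval of Pgr and those of Fzd7 and Id4 within it. Fzd7 and Id4 are also known from basal cells, and the 21 basal and myoepithelial markers other than Oxtr had a median fold of 3.65, close to theirs. The part of basal cells in the values of Fzd7, Id4 and Lgr5 was not tested. The ligand Tnfsf11 (Rankl), its receptor Tnfrsf11a, Wnt4, Rspo1 and Calca were not listed.

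The oxytocin and vasopressin list held 7 genes, and Oxtr, likewise taken from the listed genes, was the 1 listed. The hormones Oxt and Avp, the vasopressin receptors Avpr1a, Avpr1b and Avpr2, and Lnpep, the peptidase that breaks down oxytocin, were not. Of 36 genes of Gq and calcium signalling, through which the oxytocin receptor acts, 2 were lower, or 5.56%. Gnaq, the α subunit of Gq itself, had mean read counts of 2254 in WT.GFP+ against 1082 in ERα-/-.GFP+ MECs and was 2.25-fold lower, and Plcb1, a phospholipase C that Gq activates, had 445 and 181 and was 2.65-fold lower. Both folds lay below the interval of Oxtr. Gna11, the IP3 receptors Itpr1, Itpr2 and Itpr3, and the calmodulin genes were not listed.

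The contractile end of the pathway held many more listed genes. Of 34 genes of smooth muscle contraction, 18 were lower and 0 higher, or 52.9% of the list against the background of 2.34%. Their median fold was 3.58, beside 3.26 for all lower genes, and their folds ran from 2.22 in Actn1, an actin crosslinker, to 4.66 in Kcnma1, a calcium-activated potassium channel. The fold of Oxtr, at 3.60, lay in the middle of them, with 9 of the 18 above it on either scale. Mylk, the kinase that starts contraction by phosphorylating the myosin light chain, had mean read counts of 11936 and 3365 and was 3.83-fold lower. Myh11, the smooth muscle myosin heavy chain, had 32112 and 8331 and was 4.16-fold lower, and Cnn1, calponin, had 14177 and 3805 and was 4.02-fold lower. Rhoa, Rock1, Rock2, Srf, Myocd and Cav3, the nearest coding neighbour of Oxtr, were not listed.

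Oxtr is also a basal and myoepithelial marker, and of the 30 genes in that list 22 were lower and 0 higher, or 73.3%. This count includes Oxtr itself, which was taken from the listed genes. The 21 others had a median fold of 3.65, from 2.14 in Lamb3, a laminin chain, to 4.16 in Myh11. Of them, 12 had a larger fold than Oxtr by the mean counts and 9 by the mean log2 CPM. This list shares 10 listed genes with that of smooth muscle contraction, so the lists are not separate sets. The basal keratins Krt5 and Krt14 were 3.42-fold and 3.37-fold lower, and Trp63 and Snai2, transcription factors of basal cells, were 4.02-fold and 3.65-fold lower. Against Acta2, the smooth muscle α-actin, whose mean counts were 72368 and 20416, there were 6.90 reads of Oxtr per 100 reads of Acta2 in WT.GFP+ against 7.32 in ERα-/-.GFP+ MECs, a ratio of 1.06 between the genotypes. Against the summed reads of the 21 other listed markers, there were 2.12 and 2.14 reads of Oxtr per 100, a ratio of 1.01. The reads of Oxtr thus stood in nearly the same proportion to those of the 21 other listed markers in both groups. Acta2 is 1 of these 21, so the ratios are not separate. Oxtr and all 21 were listed as lower, so ratios near 1 follow in part from the listing. The 8 markers of the list that were not listed are left out. The summed level of the 21 markers was 0.868% of all reads for WT.GFP+ against 0.238% in ERα-/-.GFP+ MECs, and its part in the value of Oxtr was not tested.

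**Figure D3:**
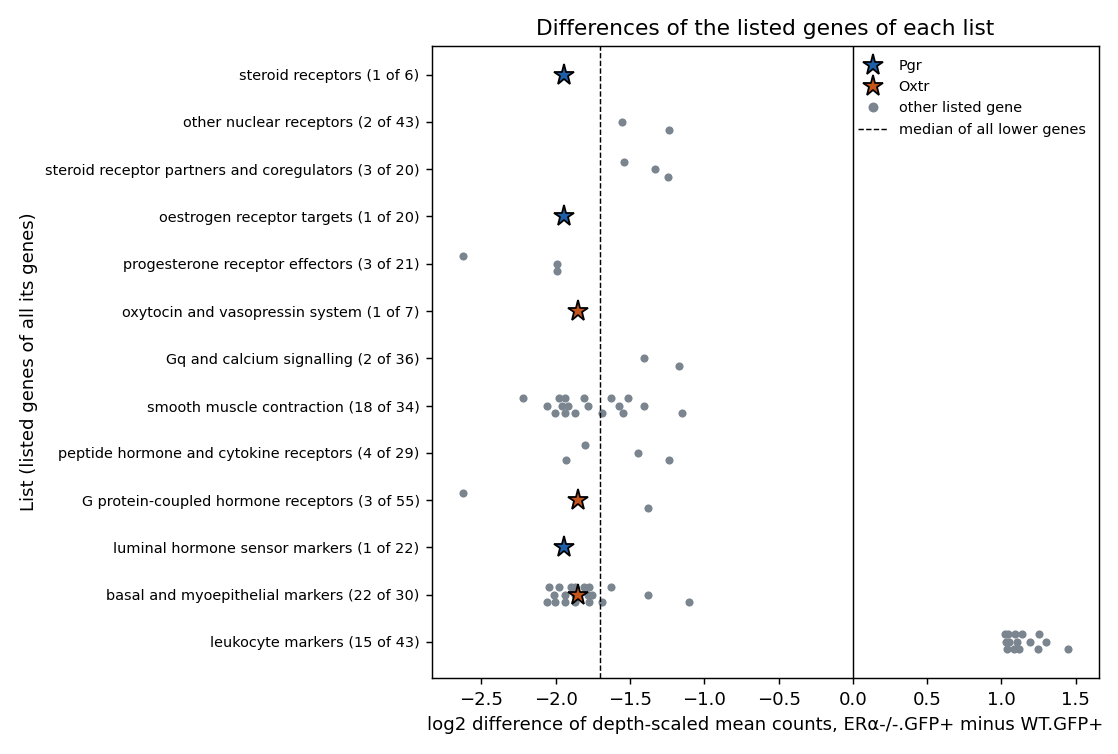
Log2 difference between ERα-/-.GFP+ and WT.GFP+ MECs, from depth-scaled mean counts, of the listed genes of each list, with the number listed of all genes in the list. Each point is 1 gene, stars are Pgr and Oxtr, and the dashed line is the median of the 566 lower genes. Pgr is the 1 listed gene in its steroid receptor, oestrogen target and sensor lists, and Oxtr 1 of 22 listed basal and myoepithelial markers.

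Pgr and Oxtr were next set among the other receptors in the tables. The 4 receptor lists hold 133 genes, of which 10 were listed, all as lower. Pgr and Oxtr are among these 10 and were taken from the listed genes. Beside this count, 2.34% of protein coding genes were listed as lower, and 86.9% of all listed genes were lower. Per kb of exon in WT.GFP+ MECs the order was Oxtr at 38.4 CPM, Nr1d1 at 14.2, Fgfr1 at 13.9, Lgr6 at 9.39, Fgfr2 at 7.34, Acvr1 at 7.31, Nr6a1 at 1.36, Igf1r at 0.940, Lgr5 at 0.848 and Pgr at 0.557. Oxtr was thus the most strongly read and Pgr the most weakly read of these 10, and the counting intervals of neighbours in this order overlapped for Nr1d1 and Fgfr1, for Fgfr2 and Acvr1, and for Igf1r and Lgr5. In ERα-/-.GFP+ MECs, Oxtr was again at the top, at 10.6 CPM per kb, and Pgr, at 0.145 (0.119 to 0.175), and Lgr5, at 0.137 (0.114 to 0.164), were at the bottom with intervals that overlapped. By fold, Lgr5 was first at 6.18 (5.10 to 7.54), and Pgr, Fgfr2, Oxtr and Igf1r followed at 3.84, 3.81, 3.60 and 3.48. Fgfr2, a receptor for fibroblast growth factors, had mean read counts of 2061 and 584 with an interval of 3.61 to 4.02, and Igf1r, the receptor for insulin-like growth factor, had 429 and 133 with an interval of 3.11 to 3.91. The intervals of Pgr, Fgfr2 and Igf1r overlapped, as did those of Oxtr and these 3 receptors. On the mean log2 CPM scale the order by fold was Lgr5, Fgfr2, Oxtr and Pgr, so the place of Pgr and Oxtr among receptors was not fixed beyond counting error. The spread between samples, which would be needed to tell them apart, is not given.

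The marker lists of other cells give the setting of these values. Of 43 leukocyte markers, 0 were lower and 15 were higher in ERα-/-.GFP+ MECs, or 34.9% against the background of 0.337%, with a median fold of 2.15, from 2.04 in Rac2 to 2.73 in Klrg1, a receptor of killer lymphocytes. Gzmb, a granule protease of cytotoxic lymphocytes, had mean read counts of 31309 in WT.GFP+ against 83015 in ERα-/-.GFP+ MECs. Per kb of exon, Gzmb stood at 802 CPM for WT.GFP+ against 1971 for ERα-/-.GFP+, and Nkg7 at 936 against 1912. The lowest of the 15 was Was, at 8.37 against 18.4, while Acta2 stood at 1212 against 317. Some leukocyte markers were thus strongly read in the sorted pools. The CPM of Pgr and Oxtr are shares of all reads of these pools, not levels of epithelial cells alone. Ptprc, the general marker of leukocytes, and Cd3d, Cd3e and Cd3g of the T-cell receptor complex, were not listed. The 15 genes together held 0.431% of all reads for WT.GFP+ against 0.944% in ERα-/-.GFP+ MECs, so that they were higher where Pgr and Oxtr were lower, and their part in the values of both receptors was not tested. None of the 17 luminal alveolar, 10 endothelial, 10 fibroblast or 8 adipocyte markers was listed, and neither were Krt8, Krt18 and Epcam, general markers of the luminal layer. At the background of 2.34% lower and 0.337% higher, lists this short would hold few listed genes. Their absence is thus no result about these cell types.

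The neighbours of each gene were counted beside the background, 2.34% of protein coding genes listed as lower and 0.337% as higher. Of 7 protein coding genes within 1 Mb of Pgr, Yap1 was listed, 895237 bp away on chromosome 9 from 7931999 to 8004596. Yap1, a transcriptional coactivator of the Hippo pathway, had mean read counts of 2232 in WT.GFP+ against 976 in ERα-/-.GFP+ MECs and was 2.47-fold lower, below the interval of Pgr. Of 23 protein coding genes within 1 Mb of Oxtr, 0 were listed, and Cav3, which lies 811 bp away, was among them. Counts this small cannot be told from the background and are no result about either locus.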

How the data were processed

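RNA of 3 WT.GFP+ and 3 ERα-/-.GFP+ samples was amplified from an oligo dT primer and read from 1 end. Alignment to mm10 with HTSstation was done by the authors, who kept the top expressed genes in ASAP and used edgeR; counter, annotation and use of strand are not given in the sources used here. The deposited values are the authors' mean count and mean log2 CPM per group (3 times each mean count was a whole number within 0.0001), for genes past a 2-fold change and an FDR of 0.05. The tables also hold the authors' fold changes, p-values and FDRs, which were not used. No column of single samples was left unmapped.

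Depth per library was the median of mean count over 2 to the power of mean log2 CPM, over genes whose mean count reached 1000 (220 in WT.GFP+ and 140 in ERα-/-.GFP+). It is approximate, since a mean of logs lies below the log of a mean. Folds are ratios of mean counts over these depths. Intervals were Clopper-Pearson for folds and Poisson for levels. Group mean counts at or below 1 were set to a mean count of 3 for the folds. The steps were tested on simulated data.

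Identifiers matched GENCODE M21 (GRCm38) for 650 of 651 genes, and both promoters came from RefSeq. Members and the 17 gene lists (368 genes) were chosen with earlier results of these data known. Named genes were Pgr, Oxtr, listed members of the lists, the 5 nearest genes of each and listed genes within 1 Mb. Alternatives were unscaled counts, mean log2 CPM, other depth genes, transcript length, a count minimum, a 4-fold limit, 1 motif mismatch and likeness by fold. Software was scipy 1.17.1, pandas 2.3.3, numpy 2.4.6 and matplotlib 3.10.9 under Python 3.11.15. Some members of the lists are not reported here by name.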

Additional observations from a re-analysis of the deposited data

How the results depend on the processing

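Of 31 alternative values, 11 stayed within the error or limit set for them, among them the Pgr fold at 3.54 on the mean log2 CPM scale and 3.56 with unscaled counts. Without scaling for depth the Oxtr fold was 3.34, below its counting interval. With the longest transcript as length, Oxtr stood 56.6 times above Pgr per kb in WT.GFP+ and 60.2 times in ERα-/-.GFP+ MECs. The log2 difference of Oxtr minus that of Pgr changed sign, to -0.074 on the mean log2 CPM scale, and the ratio of Oxtr to the 21 other listed markers was 1.01 in place of 1.06 to Acta2; both alternatives were chosen after seeing the data. With a limit of 4-fold, 3 listed genes were left of smooth muscle contraction, 4 of basal and myoepithelial markers, 1 each of progesterone receptor effectors and G protein-coupled receptors, and 0 of the 9 other lists with a listed gene. By likeness of fold alone, 0 of the 5 nearest genes were shared for Pgr and 0 for Oxtr. The cause was not tested. No paired analysis was possible because the deposited values are group means, and leaving out single samples could not be run for the same reason. Between the receptors, the depth gives Pgr the wider interval, with 109 reads in 3 ERα-/-.GFP+ libraries against 4484 of Oxtr. The folds have no spread between samples, and the tables leave out genes that did not pass.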
